A study of Mus musculus with 6 samples.

Results

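The opsins are the receptor proteins that bind a retinal chromophore. This report follows the 7 genes Opn1sw, Opn1mw, Opn3, Opn4, Opn5, Rgr and Rrh, taken by gene symbol, with no threshold on their values, from the 35485 genes of each sample's table. Retinas came from male C57BL/6 wild type mice at 12 weeks of age, 2 days after surgery in which forceps closed on the optic nerve for 10 seconds at 2 mm behind the globe (ONC) or the nerve was only exposed (sham). Each group had 3 samples, and RNA of 6 retinas from different mice was pooled for each, so the spread between samples is a spread between pools. Whole retina was sequenced, so fewer cells of a type and less RNA per cell cannot be told apart.

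Cones carry the visual opsins of daylight vision, and in the mouse many cones hold both the short wavelength opsin encoded by Opn1sw and the middle wavelength opsin encoded by Opn1mw. Opn4 encodes melanopsin, the photopigment of the intrinsically photosensitive retinal ganglion cells (RGCs), which serve the pupil reflex and the daily clock and signal through Gq proteins, phospholipase C and TRPC channels. Rgr and Rrh encode opsins of the pigment epithelium (Rgr also of Muller glia) that take part in handling retinoids, and Opn3 (encephalopsin) and Opn5 (neuropsin) encode non-visual opsins. The crush injures the axons of RGCs, and cones send no axon into the nerve.

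The sequences upstream of 4 opsins are shown because they set the cone pair, whose exon reads did not pass the test, beside Opn4, which fell, and Opn3, which had the lowest fold change. Each is the 250 bases before the transcription start in RefSeq (GRCm38.p6), written 5′ to 3′ on the strand of the gene. For Opn3 the start used lies inside the RefSeq gene span, which reaches position 175692901. Capitals mark TAATC, the core letters bound by photoreceptor homeodomain factors such as Crx.
Opn1sw (chr6:29380514-29380763, minus strand): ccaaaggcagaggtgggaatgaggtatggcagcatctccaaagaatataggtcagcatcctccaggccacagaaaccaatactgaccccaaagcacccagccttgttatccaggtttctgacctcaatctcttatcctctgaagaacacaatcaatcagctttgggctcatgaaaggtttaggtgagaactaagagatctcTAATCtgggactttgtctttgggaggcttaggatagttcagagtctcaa
Opn1mw (chrX:74127216-74127465, plus strand): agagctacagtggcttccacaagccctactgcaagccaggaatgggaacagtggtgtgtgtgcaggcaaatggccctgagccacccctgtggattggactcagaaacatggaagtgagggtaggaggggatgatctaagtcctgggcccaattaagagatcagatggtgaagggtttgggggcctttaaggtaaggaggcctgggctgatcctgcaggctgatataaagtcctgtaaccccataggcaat
Opn4 (chr14:34600143-34600392, minus strand): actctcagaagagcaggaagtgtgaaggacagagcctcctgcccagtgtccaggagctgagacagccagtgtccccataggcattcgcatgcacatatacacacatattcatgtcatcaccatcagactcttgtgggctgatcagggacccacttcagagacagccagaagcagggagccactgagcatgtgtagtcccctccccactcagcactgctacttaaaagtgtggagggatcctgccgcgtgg
Opn3 (chr1:175692633-175692882, minus strand): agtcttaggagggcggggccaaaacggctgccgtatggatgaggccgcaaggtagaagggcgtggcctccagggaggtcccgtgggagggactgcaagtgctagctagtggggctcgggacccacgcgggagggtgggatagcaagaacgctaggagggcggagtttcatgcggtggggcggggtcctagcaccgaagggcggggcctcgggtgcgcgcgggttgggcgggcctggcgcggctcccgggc
Of the 7 opsins, 6 had a promoter entry, and Opn5 had none. TAATC, searched on both strands, stood once upstream of Opn1sw, at bases 49 to 45 before the start, and was not among the letters of the other 3 windows shown. Rgr held it at bases 167 to 163 and 12 to 8 before the start, and Rrh at bases 240 to 236. The longer TAATCC, which contains TAATC, was found upstream of Rgr only, at bases 167 to 162. Of 32851 promoter windows of the same length, 19.8% held TAATC and 6.25% held TAATCC. The share of G and C was 70.4% upstream of Opn3, 54.8% for Opn4, 53.2% for Opn1mw, 46.0% for Opn1sw, 41.2% for Rgr and 38.0% for Rrh.

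Levels are given as RPKM, in which reads are divided by exon length and by the library's total of reads on genes, and which allows genes of different length to be compared. The cone opsins were by far the most abundant. Mean RPKM in the sham group was 123 ± 2.10 (SD, n = 3) for Opn1sw and 96.7 ± 13.9 for Opn1mw, then 16.9 ± 4.15 for Rgr, 9.91 ± 0.897 for Rrh, 1.93 ± 0.581 for Opn4 and 0.780 ± 0.0705 for Opn3. Opn5 was barely counted. The order of the 7 means was the same in the ONC group, and in both groups the ranges of neighbours in the order did not overlap. Among the 13670 genes whose mean RPKM exceeded 0.3 in one group or both, ordered by sham RPKM, Opn1sw ranked 288 and Opn1mw 379, whereas Rgr ranked 3274, Rrh 5389, Opn4 10624 and Opn3 12084. The cone pair made up 88.2% ± 1.12 (SD, n = 3) of the summed opsin RPKM in sham and 89.2% ± 1.33 in ONC samples. Opn4 made up 0.770% ± 0.188 in sham and 0.475% ± 0.0771 in ONC samples.

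**Figure D1:**
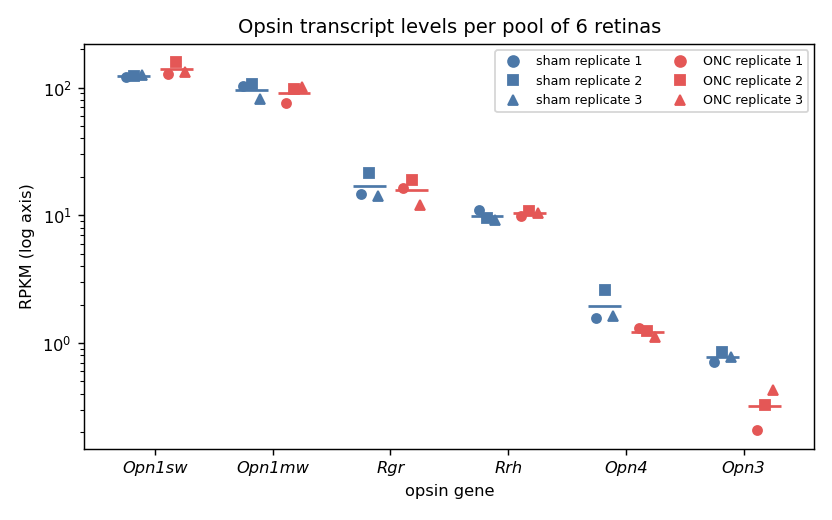
RPKM of 6 opsins (log axis) in each sham and ONC sample, with group means as lines. The cone opsins lie between 75.3 and 158 RPKM in all 6 samples, and Opn3 lies below 1.

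Exon reads of ONC and sham samples, scaled by TMM, were tested in edgeR by quasi-likelihood. This scaling assumes that most genes do not change. A gene was called at an adjusted p (Benjamini-Hochberg, over all 13670 genes) under 0.1 and was a DEG when its fold change was also above 1.5. Of the 7 opsins, 6 passed the RPKM filter, and 1 of these, Opn4, was called and was a DEG. Of all genes tested, 6.09% were called (2.38% higher and 3.72% lower in ONC), and 1.66% were DEGs (0.827% higher and 0.834% lower). RPKM, unlike TMM, divides by reads on introns as well. Exon reads were 70.9% to 76.6% of gene reads in sham and 78.5% to 80.4% in ONC samples, so RPKM scaling moved the median log2 fold change of all genes from 0.01 to 0.13. All 10 defining markers of retinal cell types were detected.

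Opn4 (chr14:34590618-34600142, 11 exons), the melanopsin gene, fell 1.72-fold after ONC. Its exon reads were 103, 179 and 115 in the sham samples and 95, 88 and 83 in the ONC samples, and its RPKM was 1.56, 2.60 and 1.64 against 1.31, 1.23 and 1.12. Every ONC value lay below every sham value, as for 10.8% of all genes on the TMM scale (21.8% in either direction) and 3.45% on the RPKM scale, and sham replicate 2 stood well above the other two. The log2 fold change was -0.78 (SE 0.23, 95% interval -1.26 to -0.31, edgeR adjusted p = 0.0626). Without sham replicate 2 it was -0.54 and the call was lost (edgeR adjusted p = 0.346). The call was also lost without sham replicate 3 (-0.85, edgeR adjusted p = 0.124), ONC replicate 2 (-0.78, 0.175) or ONC replicate 3 (-0.73, 0.205). With so few reads, counting error alone gives wide limits, for example 154 to 207 reads (95% exact Poisson interval) for the 179 of sham replicate 2.

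Opn3 (chr1:175662427-175692590, 4 exons) had the lowest log2 fold change of the opsins tested and did not pass the test. Its exon reads were 28, 35 and 33 in sham and 9, 14 and 19 in ONC samples, and its RPKM was 0.708, 0.849 and 0.783 against 0.207, 0.327 and 0.426. All ONC values lay below all sham values, as for 10.8% of all genes after TMM and 3.45% on the RPKM scale. The log2 fold change was -1.40 (SE 0.47, 95% interval -2.38 to -0.43, edgeR adjusted p = 0.109). It passed the threshold with the DESeq2 Wald test (adjusted p = 0.0753) and with limma on log2(RPKM + 0.1) (adjusted p = 0.0823) or log2(RPKM + 1) (adjusted p = 0.0480). The authors list Opn3 among the most downregulated genes in these samples. They used another test, on RPKM, with an FDR under 0.1 and a fold change above 1.5. The edgeR fit on exon reads thus differs from the authors' call for Opn3. Introns held 90.4% to 96.6% of the reads on Opn3, and 80.1% to 92.7% of its gene reads were not uniquely mapped. All of its exon reads were unique, and with unique exon reads the log2 fold change was -1.41 (edgeR adjusted p = 0.104). Chml, a single-exon gene that lies within the Opn3 span, had 1 to 10 exon reads per sample.

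Opn5 (chr17:42556783-42611313, 7 exons) had 0, 0 and 1 exon reads in sham and 0, 0 and 4 in ONC samples. A count of 0 allows up to 3 reads (one-sided limit, against 3.69 for the upper end of the two-sided 95% exact Poisson interval), and 3 reads are 0.0650 to 0.0715 RPKM in the samples at 0. Opn5 was thus at or near the limit of detection at this depth, and no fold change is given.

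**Figure D2:**
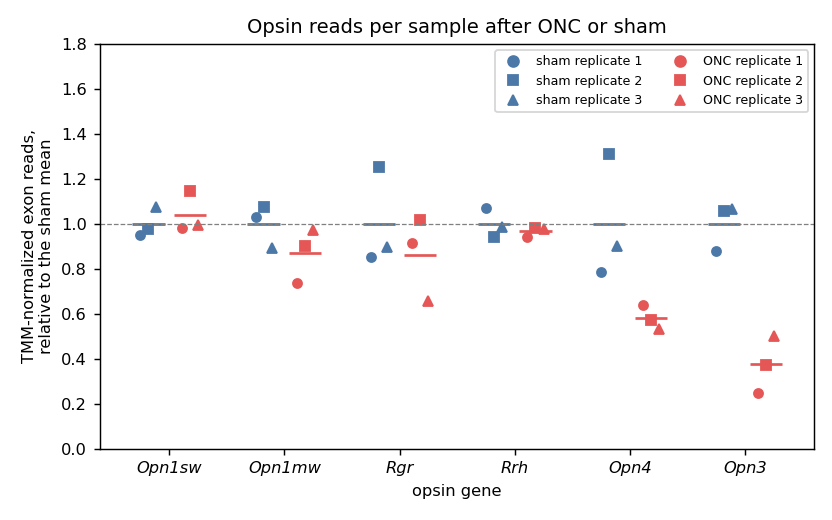
TMM-normalized exon reads of 6 opsins in each sample, relative to the mean of the sham samples, with group means as lines. For Opn4 and Opn3 all ONC points lie below all sham points, and for Opn1sw, Opn1mw, Rgr and Rrh the groups overlap.

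The exon reads of the cone opsins did not pass the test. Opn1sw (chr6:29376671-29380513, 5 exons) had 6690, 7162 and 7352 exon reads in sham and 7856, 9457 and 8330 in ONC samples. Its RPKM was 121, 124 and 125 against 129, 158 and 133, with every ONC value above every sham value, but on that scale 25.4% of all genes were so ordered, against 11% after TMM. After TMM normalization the groups overlapped, and the log2 fold change was 0.06 (SE 0.07, 95% interval -0.08 to 0.20, edgeR adjusted p = 0.711). Its sign turned without ONC replicate 2 (-0.021). Opn1mw (chrX:74127466-74150756, 6 exons) had 2877, 3120 and 2416 exon reads in sham and 2328, 2940 and 3224 in ONC samples. Its RPKM was 102, 107 and 80.8 against 75.3, 96.8 and 102, and the groups overlapped. The log2 fold change was -0.20 (SE 0.09, 95% interval -0.38 to -0.02, edgeR adjusted p = 0.241). It was -0.096 without ONC replicate 1. Opn1mw was called when no RPKM filter was used (-0.20, edgeR adjusted p = 0.0560).

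Rgr and Rrh, the opsins of the pigment epithelium, did not pass the test either. Rgr (chr14:37037490-37048964, 7 exons) had 562, 860 and 576 exon reads in sham and 684, 787 and 518 in ONC samples. Its log2 fold change was -0.21 (SE 0.15, 95% interval -0.52 to 0.09, edgeR adjusted p = 0.496). Sham replicate 2 was the highest sample for Rgr, as it was for Opn4, and without it the log2 fold change of Rgr was -0.019. Without ONC replicate 3 it was -0.057. Sham replicate 2 was also the highest for Rpe65, the retinoid isomerase of the pigment epithelium. The RPKM of Rpe65 was 4.74, 8.34 and 3.26 in sham and 4.10, 6.45 and 3.26 in ONC samples. Of 11 pigment epithelium markers, none was at 0 and 5 were highest in sham replicate 2. The share of all genes highest in that sample was not counted. The summed RPKM of these markers was 52.6, 68.2 and 50.7 in sham and 53.8, 67.5 and 44.5 in ONC samples. It was thus highest in replicate 2 of each group, and the part of these markers in the results was not tested. Rrh (chr3:129808575-129822505, 7 exons) had 350, 321 and 314 exon reads in sham and 350, 377 and 380 in ONC samples. Its log2 fold change was -0.05 (SE 0.12, 95% interval -0.30 to 0.20, edgeR adjusted p = 0.882), and it turned to 0.074 under RPKM scaling.

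Ratios of RPKM within a sample do not depend on scaling between samples. In all, 11 ratios were compared by a two-sided exact permutation test, in which 3 samples against 3 cannot give a p below 0.1, so that none could pass 0.05. Melanopsin was first set against the cone opsins. The ratio of Opn4 to Opn1sw was 0.0129, 0.0210 and 0.0131 in sham and 0.0102, 0.00781 and 0.00837 in ONC samples. All ONC values lay below all sham values, with a log2 difference of -0.81 (exact permutation p = 0.1, adjusted 0.314). The ratio of Opn4 to Opn1mw overlapped between groups (log2 difference -0.55, exact permutation p = 0.2, adjusted 0.314). Opn3 to Opn1mw did not overlap (log2 difference -1.26, exact permutation p = 0.1, adjusted 0.314), and its difference was -0.30 with total gene reads. Opn4 to Opn3 overlapped (log2 difference 0.71, exact permutation p = 0.2, adjusted 0.314). Between the cone opsins, Opn1sw to Opn1mw was 1.18, 1.16 and 1.54 in sham and 1.71, 1.63 and 1.31 in ONC samples, which overlapped (log2 difference 0.26, exact permutation p = 0.2, adjusted 0.314).

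Set against RGC genes, Opn4 gave unlike ratios. To Rbpms, an RNA-binding protein gene used as a general RGC marker, the ratio was 0.168, 0.248 and 0.157 in sham and 0.233, 0.186 and 0.174 in ONC samples, with a log2 difference of 0.07 (exact permutation p = 0.7, adjusted 0.770). To Sncg, the gamma-synuclein gene, the log2 difference was 0.19 (exact permutation p = 0.5, adjusted 0.688). Both overlapped. To Slc17a6, the vesicular glutamate transporter gene of RGCs, the ratio was 0.0943, 0.164 and 0.0916 in sham and 0.0615, 0.0542 and 0.0507 in ONC samples, with no overlap (log2 difference -1.02, exact permutation p = 0.1, adjusted 0.314). The other ratios overlapped. They were Rgr to Rpe65 (log2 difference 0.10, exact permutation p = 0.8, adjusted 0.8), Opn1sw to Arr3, the cone arrestin gene (-0.10, exact permutation p = 0.6, adjusted 0.733), and Opn1mw to Arr3 (-0.36, exact permutation p = 0.2, adjusted 0.314).

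**Figure D3:**
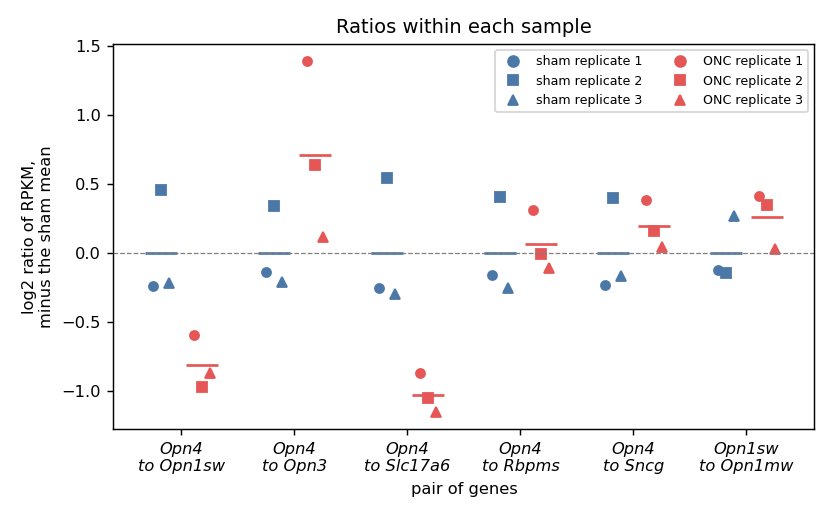
Log2 ratio of the RPKM of gene pairs in each sample, minus the mean of the sham samples, with group means as lines. The ONC points lie below the sham points for Opn4 to Opn1sw and Opn4 to Slc17a6, and the groups overlap for the other 4 pairs.

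Genes of the pathways and cells in which the opsins work were counted in the same edgeR fit. These counts stand beside 6.09% of all genes called, 2.38% higher and 3.72% lower in ONC. Of 11 RGC markers, 9 fell and 1 rose, with a median log2 fold change of -0.75. Part of this list was known to fall, since the authors report Nefh, Pou4f1, Pou4f2, Rbpms and Sncg as downregulated in these samples. Pou4f2, a transcription factor gene of RGCs, fell by 1.39 (SE 0.19, edgeR adjusted p = 0.000103) and Nefh, the heavy neurofilament gene, fell by 1.29 (SE 0.09, edgeR adjusted p = 2.89e-08) on the log2 scale. Slc17a6 rose by 0.26 (SE 0.07, edgeR adjusted p = 0.0525), a call lost without sham replicate 1 (0.23, 0.198), sham replicate 2 (0.21, 0.286), ONC replicate 2 (0.25, 0.146) or ONC replicate 3 (0.26, 0.168). Of the 8 genes of the melanopsin cascade, none was called by edgeR or DESeq2, and 1 had an unadjusted p under 0.05, with a median log2 fold change of -0.10. Trpc7 and Trpc6, channel genes of that cascade, had log2 fold changes of -0.03 (edgeR adjusted p = 0.969) and -0.62 (0.432). Of 4 genes that mark melanopsin RGCs, 1 rose, and DESeq2 called 2, the other being Tbx20. Adcyap1, which encodes the neuropeptide PACAP of these cells, rose from 2.06, 1.46 and 1.72 RPKM in sham to 7.36, 6.51 and 5.58 in ONC samples (log2 fold change 1.77, SE 0.17, edgeR adjusted p = 2.21e-06). Tbx20 and Eomes, transcription factor genes of these cells, had log2 fold changes of -1.10 (edgeR adjusted p = 0.104) and -0.30 (0.405), and Rasgrp1 had -0.13 (0.575).

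The counts of photoreceptor genes called stand beside 6.09% of all genes. Of 12 cone phototransduction genes 1 rose and none fell (median 0.03). This was Pde6c, the cone phosphodiesterase gene, with a log2 fold change of 0.37 (SE 0.07, edgeR adjusted p = 0.00180), and DESeq2 called Guca1a as well. Of 17 rod genes 2 rose and 2 fell (median -0.02), with Sag, the rod arrestin gene, at 0.39 (SE 0.05, edgeR adjusted p = 2.14e-05) and Gucy2f, a guanylate cyclase gene, at -0.26 (0.06, 0.00798). Of 8 photoreceptor transcription factors 1 rose and 1 fell (median -0.05), which were Nr2e3 (log2 fold change 0.37, edgeR adjusted p = 0.00171) and Rorb (-0.56, 0.000235). The Gucy2f call was lost with RPKM scaling (-0.14, edgeR adjusted p = 0.191). With limma on log2(RPKM + 0.1) the calls of Gucy2f (adjusted p = 0.381), Rorb (0.177), Pde6c (0.114) and Nr2e3 (0.117) were lost, and on log2(RPKM + 1) those of Gucy2f (0.366) and Rorb (0.102). No gene was called by edgeR among 15 of the pigment epithelium and visual cycle (median -0.07), where 2 had an unadjusted p under 0.05 and DESeq2 called 0. Among 8 of Muller glia (median 0.03) edgeR also called none, where 3 had an unadjusted p under 0.05 and DESeq2 called 1, Vim. The median over all genes was 0.01.

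**Figure D4:**
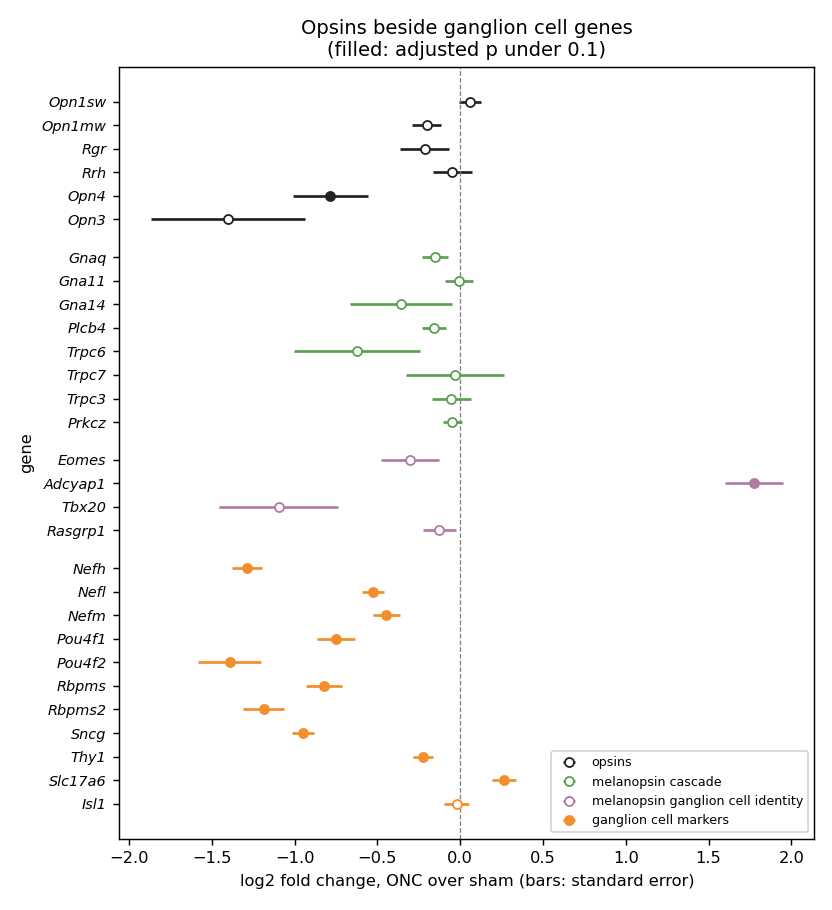
Log2 fold change (ONC over sham) with its standard error as bars for 6 opsins and for the genes of 3 lists, filled where the adjusted p is under 0.1. Opn4 at -0.78 is the one filled opsin, and Adcyap1 at 1.77 is the one filled gene among the melanopsin cascade and the genes that mark melanopsin RGCs.

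Reads on introns can come from RNA that is not fully spliced. They were examined after the read classes of Opn1sw had been seen, so the pattern was noticed in the same data in which it was tested. Opn1sw had 176, 214 and 150 intron reads in sham and 242, 460 and 419 in ONC samples. All ONC values were above all sham values, and ONC replicates 2 and 3 were highest. The share of all genes whose intron reads were so ordered was not counted. Intron reads made up 2.49% ± 0.456 (SD, n = 3) of its gene reads in sham and 4.14% ± 0.999 in ONC samples. They rose 2.09-fold (log2 fold change 1.06, SE 0.21, 95% interval 0.61 to 1.51, edgeR adjusted p = 0.0466 over 13391 genes), where 2.7% of genes were called, 0.456% higher and 2.24% lower. Over all genes the share of intron reads moved the other way, since the exon share was higher in ONC samples. The intron fit was scaled by intron reads, so its fold change is not on the scale of the exon reads. The call was lost without sham replicate 2 (1.20, edgeR adjusted p = 0.121), ONC replicate 2 (0.87, 0.324) or ONC replicate 3 (1.07, 0.181). Reads that span an intron-exon border of Opn1sw numbered 180, 187 and 177 in sham and 225, 403 and 396 in ONC samples. These counts are not scaled, the ONC samples held more reads, and the share of all genes so ordered was not counted. How far the border reads overlap with the intron reads was not examined.

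The other opsins differed widely in their intron share and were not called. Introns held 30.1% to 41.2% of the reads on Opn1mw and 25.5% to 38.3% of those on Rrh, but 3.03% to 5.81% of those on Rgr and at most 4.17% of those on Opn4. The intron share of Opn3 was 91.5% ± 1.20 (SD, n = 3) in sham and 95.5% ± 1.51 in ONC samples, without overlap (exact permutation p = 0.1, the smallest possible), beside the fewer exon reads of that group. For Opn1mw, Opn3, Rgr and Rrh the adjusted p of the intron reads (edgeR) ranged from 0.605 to 0.978, and Opn4 and Opn5 had too few to be tested. Strand was not stated, so reads from antisense RNA cannot be told apart. Calu overlaps the end of Opn1sw by a few bases, and Gm6758, which lies within Opn1mw, had 0 reads.

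**Figure D5:**
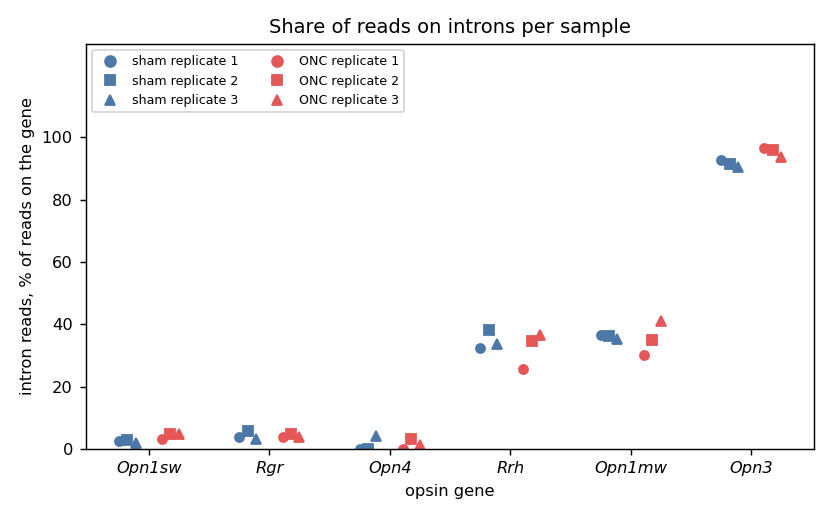
Intron reads as a percentage of all reads on the gene for 6 opsins in each sample. Opn3 lies at 90.4% or above in all 6 samples, and Opn1sw lies at 2.00% to 2.90% in sham and 2.99% to 4.79% in ONC samples.

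The genes most like each opsin over the 6 samples were found by Pearson's r of log2 TMM-normalized counts, as a description. They were Ormdl1 for Opn1sw (r = 0.975), Aars2 for Opn1mw (r = 0.995), Slc2a3 for Opn4 (r = 0.988), Atp6v1h for Rgr (r = 0.996) and Palb2 for Rrh (r = 0.990). The cone opsins did not follow each other (r = -0.26). These points share their libraries, and with 6 samples many genes reach high values, as r was above 0.95 for 73 genes with Opn4 and for 6 with Opn1sw.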

How the data were processed

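Whole retinas were profiled by RNA-seq in 3 ONC and 3 sham samples, grouped by the sample labels. Reads were mapped by the authors in CLC Genomics Workbench. They deposited unnormalized read counts per gene, an intact pair counting as 1, and RPKM values. The labels name mm9, but the gene positions match GRCm38 (of 29899 genes matched to RefSeq GRCm38.p6, 29864 overlap), and 4 of 7 opsin spans are identical. Samples held 17343945 to 20358008 exon reads. Poisson intervals of read counts cover counting error only. Intervals of log2 fold changes come from the edgeR fit and also cover the spread between samples.

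Exon reads were tested with edgeR 4.0.16 in R 4.3.3 (TMM, glmQLFit, glmQLFTest, condition only), with DESeq2 1.42.0 and limma 3.58.1 as alternatives. The standard error is the log2 fold change over the square root of F. Intron reads (gene minus exon reads, filterByExpr) were an alternative chosen after the data were seen. Ratios and figures used Python 3.11.15 with scipy 1.17.1 and matplotlib 3.10.9.

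The members and gene lists were chosen with earlier results of these data known. Named were the opsins, the genes of the ratios, up to 3 called genes of largest change and the most abundant gene of each list, genes overlapping an opsin, and the 3 genes most like each opsin with at least 50 exon reads on average. Of these the text gives those that bear on the opsins. Trpc6, Trpc7, Tbx20, Eomes and Vim were added after their values were seen.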

Additional observations from a re-analysis of the deposited data

Results flagged for a closer look

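The intron reads of Opn1sw were outside the main measurement of exon reads and lay above the level of the sham samples, with a log2 fold change of 1.06 between 3 ONC and 3 sham samples (edgeR adjusted p = 0.0466). The exon reads of the same gene had a log2 fold change of 0.06. Each fit was scaled by its own class of reads, so these values are not on one scale. Outliers within a group were not tested, since each group had 3 samples.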

How the results depend on the processing

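The number of opsins called (1 of 7) became 2 with the DESeq2 Wald test or total gene reads (Opn4 and Opn3) and with no RPKM filter (Opn4 and Opn1mw), and 0 at an FDR under 0.05. It ranged from 0 to 1 when 1 sample was left out. The number of opsin DEGs (1) became 2 with the DESeq2 Wald test and 0 with limma on log2(RPKM + 1), and ranged from 0 to 1 without 1 sample. Opn4 kept its direction under 18 alternatives (log2 fold change -0.94 to -0.39) but was not called in 6, which include limma on log2(RPKM + 0.1) (-0.59, adjusted p = 0.198) and log2(RPKM + 1) (-0.39, adjusted p = 0.143). Opn3 kept its direction under 17 alternatives (-1.67 to -0.43). With total gene reads, most of them intronic and not unique, it was called at -0.47 (edgeR adjusted p = 0.0669).

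The genes called among the lists numbered 18, against 8 with limma on log2(RPKM + 0.1) and 15 to 33 without 1 sample, the highest being without ONC replicate 1. The calls over all genes numbered 833, against 1730 with RPKM scaling, 255 with limma on log2(RPKM + 0.1), 371 without sham replicate 2, 400 without sham replicate 3, 435 without ONC replicate 2 and 2031 without ONC replicate 1.

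The log2 fold change of Opn1sw turned to -0.021 without ONC replicate 2 (range without 1 sample -0.021 to 0.11), and that of Rrh to 0.074 with RPKM scaling, 0.076 with limma on log2(RPKM + 0.1) and 0.070 on log2(RPKM + 1). With total gene reads the Opn4 to Opn3 ratio turned to -0.23 and Opn3 to Opn1mw moved from -1.26 to -0.30. Without 1 sample, Opn4 to Rbpms ranged from -0.059 to 0.27, Rgr to Rpe65 from -0.066 to 0.31 and Opn1sw to Arr3 from -0.26 to 0.031. For intron reads, the replicate block turned Opn1mw to -0.00081 and Rgr to 0.00083, and without 1 sample Opn1mw ranged from -0.18 to 0.19, Rgr from -0.38 to 0.54 and Rrh from -0.058 to 0.19. The cause was not tested.

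The labels give ONC and sham samples the same replicate numbers. Samples of the same number did not deviate together (correlations of -0.047, -0.033 and 0.0026). These values cannot show whether samples of the same number were handled together. With the replicate number as a block, 728 genes were called and Opn4 was at -0.76 (edgeR adjusted p = 0.0827).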
